A study of Rattus norvegicus with 6 samples.

Results

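The comparison set the trigeminal nerve of the congenic rat strain BDIX.BDIV-Mss4a against that of the inbred strain BDIV. Its members were 4 Illumina rat BeadChip arrays, picked by the strain name at the head of each signal column: a male and a female pool of the congenic, and a male and a female pool of BDIV, matched by sex. They are 4 of the 6 arrays of the series. The other 2, a male and a female pool of the inbred strain BDIX, entered the model so that its spread rested on all pools, and their values are given beside the rest. Every array carried RNA of pooled nerves from rats aged 85 days that had received no treatment. The number of animals in a pool is not known from the sources used here, and each strain and sex had 1 pool. The arrays carry no batch label, so strain and hybridisation batch cannot be told apart.

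BDIX rats are susceptible to malignant schwannomas of this nerve after the alkylating carcinogen ethylnitrosourea, and BDIV rats are resistant. The congenic line carries a BDIV segment, named Mss4a after a locus linked to this resistance, in an otherwise BDIX genome. It therefore shares the segment with BDIV and differs from BDIV elsewhere, so the comparison asks how a nerve with the BDIX background differs from a BDIV nerve when both hold the same segment. The trigeminal nerve bundles axons of sensory neurons. Schwann cells ensheathe these axons, answer to axonal neuregulin through ErbB receptors and make lipid-rich myelin. Fibroblasts, perineurial cells and small vessels form the coverings of the nerve. In bulk RNA of such a tissue, fewer cells of a type and less RNA per cell cannot be told apart.

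Markers of nerve were measured on all 6 arrays. The Schwann cell genes Sox10 and S100b had log2 levels of 10.54 to 12.42 and 13.13 to 13.81, and Prph, the intermediate filament of peripheral sensory axons, 13.65 to 14.84. Eif2s3, Usp9x and Ddx3x, X-linked genes that escape inactivation in part, were higher in the female than in the male pool of each strain, which fits the labelled sexes. The congenic arrays were dimmer. The upper quartile of the signal was 2.59 (male) and 2.64 (female) times the background in the congenic, 6.46 and 6.48 times in BDIV and 5.34 and 5.96 times in BDIX. Probes were detected (detection p under 0.01) in 40.4% and 41.1% of cases on the congenic, 45.8% and 46.7% on the BDIV and 44.8% and 47.3% on the BDIX arrays.

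The nerves of the congenic and BDIV differed at a large share of the transcripts measured. Of 10484 probes tested with limma, 3880 (37.0%) were called at an adjusted p under 0.05. Of all tested probes, 1900 (18.1%) were called higher in the congenic and 1980 (18.9%) lower. The calls covered 2815 named genes, 1459 higher and 1356 lower. More than 2-fold differences made up 2033 of the calls, 847 higher and 1186 lower, and more than 4-fold differences 212, with 68 higher and 144 lower. Over all tested probes the median log2 difference was -0.017, the median absolute difference 0.53 and the median standard error (SE) 0.22. Against BDIX, the strain that gave the congenic its background, 1247 of the same 10484 probes (11.9%) were called. These comparisons share the congenic arrays.

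The count rested on single arrays and on the scaling. It was 960 without the BDIV female array, 1570 without the BDIV male, 2171 without the congenic female and 2616 without the congenic male array. It was 5711 without the BDIX male and 5876 without the BDIX female array. When arrays were scaled by their medians instead of quantile normalised, 5913 probes were called and 8.42% of these were higher in the congenic, against 49.0% above, and the median of all probes was -0.64. The direction of a small difference is therefore relative to the scaling, and list medians under median scaling are to be read against -0.64. Detection also differed by strain. Among tested probes, 1084 were detected on both BDIV and neither congenic array, and 562 of them were called. The reverse held for 160 probes, of which 154 were called. With probes split by level into 5 equal bins, 264 of the dimmest bin were called higher and 476 lower, and 434 and 337 of the brightest. The part of array brightness in the strain difference was not tested.

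The differences ran alike in both sexes. Across the 10484 probes the male and the female strain difference correlated with an r of 0.85, a description across probes, which are not replicates. All 3880 called probes had the same sign in both sexes, as had 8870 (84.6%) of all tested probes. A probe of opposite signs could hardly be called, since the model counts disagreement between males and females as error.

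**Figure D1:**
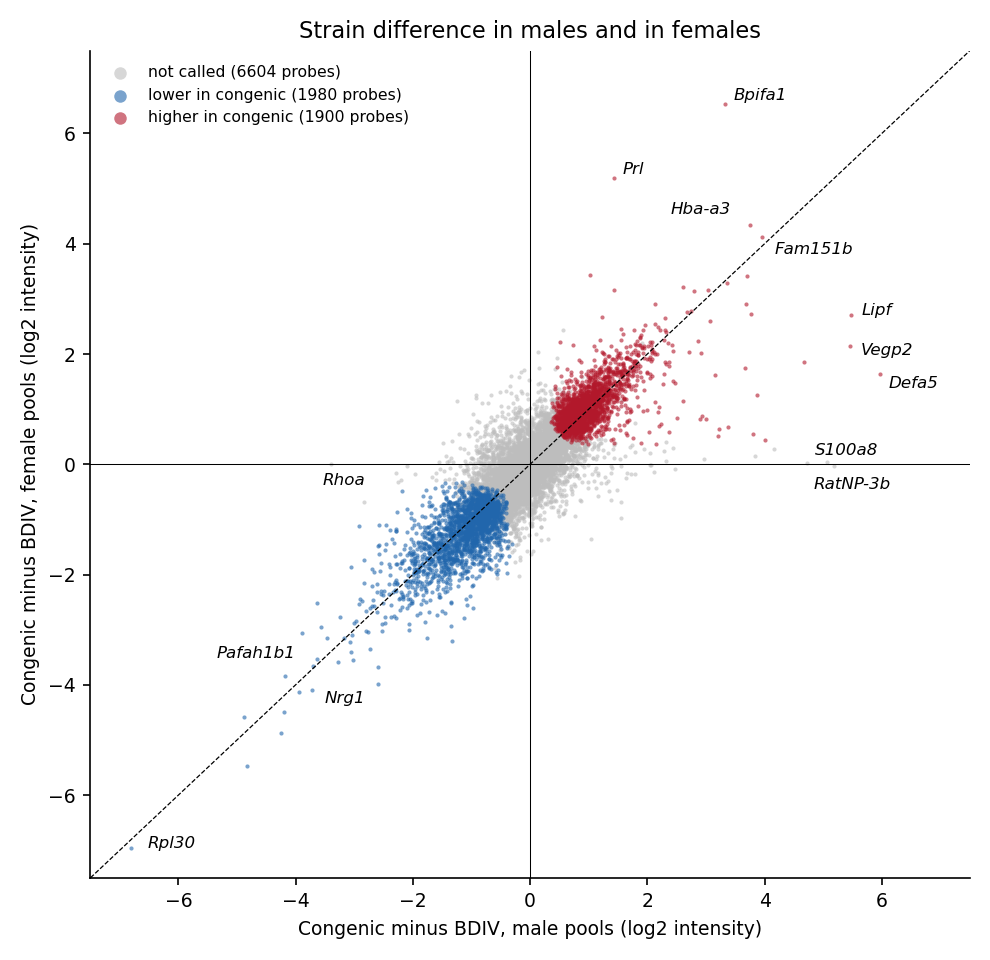
Congenic minus BDIV log2 intensity in the male pools (horizontal) and the female pools (vertical) for each of the 10484 tested probes, coloured by call, with equal differences on the dashed line. Rpl30 lies far along the lower diagonal, and Bpifa1 and Prl lie above and Defa5, S100a8 and RatNP-3b below the diagonal.

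The genes that stood highest in the congenic over BDIV were genes of glands and airway epithelium, of red cells and of neutrophil granules, together with single genes such as Fam151b and Nr1d1. Bpifa1, a protein secreted by airway and nasal epithelium, had log2 levels of 8.34 in the congenic male and 11.81 in the congenic female pool, 5.02 and 5.28 in BDIV, and 5.03 in both BDIX pools. It was detected on neither BDIV array, and the congenic was at least 29.8-fold higher (4.93 ± 0.75, log2 ± SE, adjusted p = 0.00414). Such a bound sets the mean of the brighter strain against a floor, per array the higher of the lowest detected level and the probe's own level, and log2 differences beside it take in values at background. Lipf, a lipase of lingual and gastric glands, read 10.15 and 7.69 in the congenic and at most 4.99 on the other 4 arrays. It was at least 14.3-fold higher than in BDIV and also passed the filter through the congenic arrays alone.

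The alpha-globin gene Hba-a3 read 11.06 and 11.03 in the congenic, 7.31 and 6.68 in BDIV and 12.35 and 11.54 in BDIX, a difference of 4.05 ± 0.23 (adjusted p = 3.9e-04). Fam151b read 8.55 and 8.76 in the congenic, 4.60 and 4.64 in BDIV and 9.31 and 8.92 in BDIX, at least 11.9-fold higher in the congenic (4.04 ± 0.24, adjusted p = 4.1e-04). For both genes BDIX lay with the congenic and BDIV stood alone at the low end. Nr1d1, a repressor of the circadian clock, read 10.26 and 10.61 in the congenic, 7.65 and 7.39 in BDIV and 9.53 and 9.62 in BDIX (2.92 ± 0.21, adjusted p = 7.1e-04). Ifi47, an interferon-induced GTPase, was at least 6.39-fold higher, with 7.74 and 7.78 in the congenic and 4.71 and 4.63 in BDIV. Slc38a5, an amino acid transporter, differed by 2.83 ± 0.23 and Rhbdf1, an inactive rhomboid protease, by 2.77 ± 0.19. Haptoglobin (Hp), the haemoglobin-binding plasma protein, was at least 6.52-fold higher.

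The rest of the 15 largest were Defa5 (at least 14.0-fold), Vegp2 (at least 11.4-fold), Prl (3.31), Lgals5 (3.30), Lcn1 (3.26) and Cyp2g1 (at least 7.84-fold), described with their lists below. Prolactin (Prl) was not called without the BDIV female array (adjusted p = 0.0527), and Prl and Defa5 lost theirs without sex in the model. The other 13 kept their calls under each alternative that tested them, and none changed direction. Genes not detected on all 4 congenic and BDIV arrays were not tested where that was required.

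Rpl30, which encodes a large-subunit ribosomal protein, had the largest difference of all named genes. It read 12.02 and 11.98 in BDIV, 5.21 and 5.03 in the congenic, where neither array detected it, and 6.87 and 5.81 in BDIX. The congenic was at least 101-fold lower (-6.89 ± 0.29, adjusted p = 2.6e-04). For this and every other gene, transcript level and strain variation in the sequence a probe binds cannot be told apart. Nrg1, the axonal growth factor for Schwann cells, read 8.98 and 9.04 in BDIV, 5.27 and 4.94 in the congenic and 6.15 and 6.32 in BDIX, at least 12.7-fold lower in the congenic (-3.91 ± 0.24, adjusted p = 4.1e-04). Pafah1b1, a regulator of the dynein motor that in humans is mutated in lissencephaly, read 9.90 and 9.86 in BDIV and 6.19 and 6.20 in the congenic (-3.68 ± 0.21, adjusted p = 3.9e-04). Congenic and BDIV pools did not overlap in these 3 genes, which largely follows from their choice as the largest called differences.

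Commd6 (at least 9.44-fold), Tmem243 (at least 7.34-fold), the proteasome assembly factor Psmd5 (at least 8.97-fold) and the polarity protein Lin7b (at least 7.65-fold) were lower in the congenic and detected on neither of its arrays. So was the class I histocompatibility gene RT1-CE16, which read 7.84 and 7.81 in BDIV and 4.66 to 4.79 on the other 4 arrays (at least 5.58-fold). The neuropeptide gene somatostatin (Sst) read 9.54 and 9.86 in BDIV and 6.94 and 5.88 in the congenic (-3.29 ± 0.35, adjusted p = 0.0018). Plcxd3 differed by -3.28 ± 0.23, Lgi2 by -3.13 ± 0.37, the amino acid transporter subunit Slc3a1 by -2.91 ± 0.22 and Reep5, which shapes tubular endoplasmic reticulum, by -2.67 ± 0.21. Reg3a, a secreted lectin, was at least 5.61-fold lower and Igfbp3, a binding protein of insulin-like growth factors, at least 6.13-fold lower. Igfbp3 was not called without the BDIV female array (adjusted p = 0.12). The other 14 kept theirs under each alternative that tested them.

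**Figure D2:**
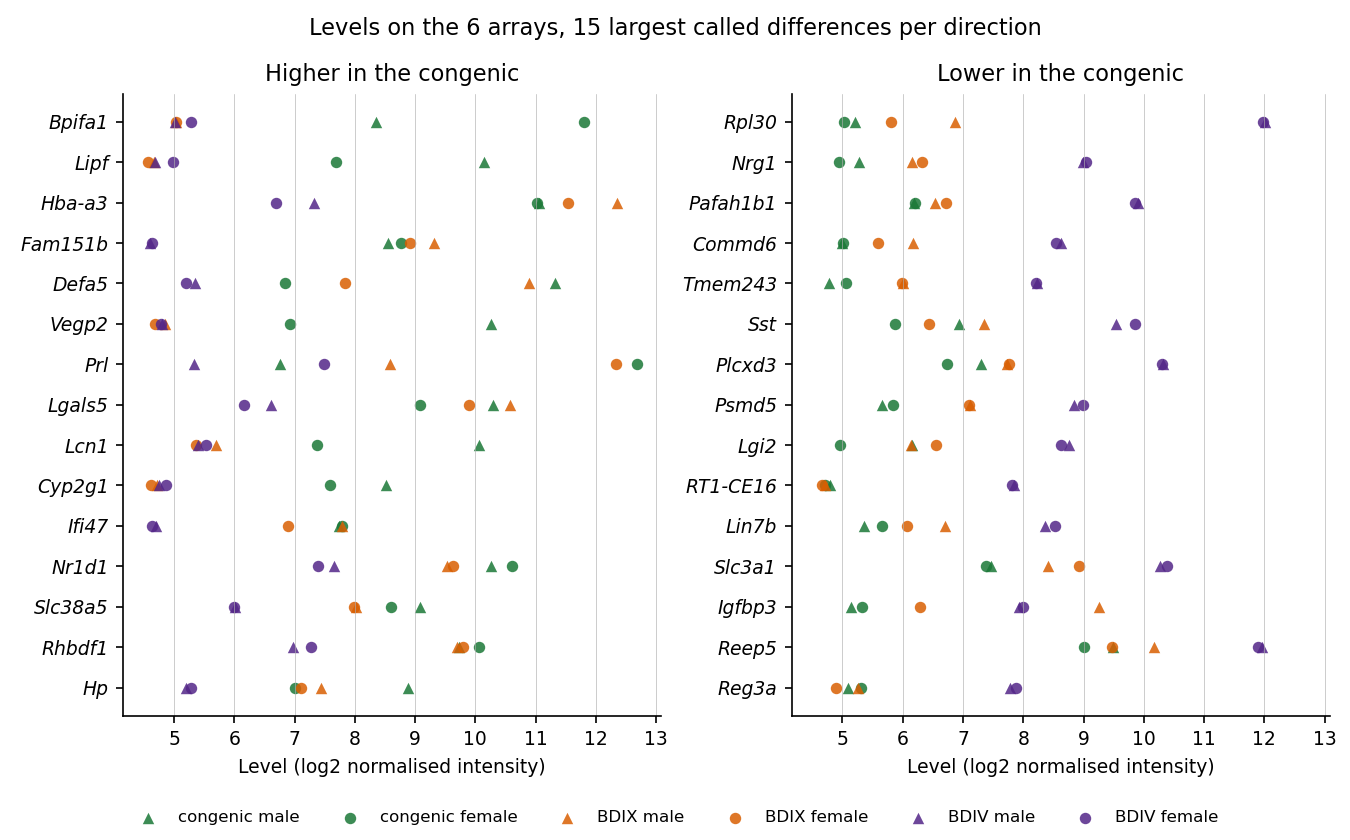
Log2 normalised intensity on each of the 6 arrays for the 15 largest called differences in each direction, with triangles for male and circles for female pools. In the right panel the BDIV pools stand to the right of both congenic pools for each gene, which largely follows from how the genes were chosen. In the left panel the spread between the 2 congenic pools is wide for Bpifa1, Lipf, Defa5, Vegp2, Prl and Lcn1.

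Many genes of the sensory neuron, the synaptic vesicle and the potassium and sodium channel lists were lower in the congenic. The channel list is not confined to neurons, and Kcnj10 is also in the glia list. Of 22 tested sensory neuron and axon genes 14 were called lower and none higher, with a median of -1.03, against 18.9% called lower and a median of -0.017 over all probes. Besides Nrg1, the growth cone tubulin-binding protein gene Stmn2 read 12.42 and 12.25 in the congenic, 14.17 and 14.22 in BDIV and 12.98 and 13.28 in BDIX (-1.86 ± 0.20, adjusted p = 0.0019). Its relative Stmn3 differed by -1.53 ± 0.20. The neurotrophin receptor gene Ntrk2 read 8.58 and 8.18 in the congenic and 10.10 and 10.05 in BDIV (-1.70 ± 0.19, adjusted p = 0.002). The heavy neurofilament gene Nefh differed by -2.20, the medium one Nefm by -1.09 and Prph by -0.85. The light neurofilament gene Nefl was not called (0.39 ± 0.23), nor were the nociceptor channel genes Trpv1 (-0.13) and Scn10a (-0.39) or the growth-associated Gap43 (-0.16). Without the BDIV female or without the congenic female array 7 of the 22 were called lower.

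Of 14 synaptic vesicle and SNARE genes 9 were lower and none higher (median -0.87), but 4 had passed the detection filter through the BDIV arrays alone. The called share was 64.3%, against 37.0% of all probes. Of the 10 detected on all 4 congenic and BDIV arrays 6 were lower (median -0.78). Nsf, the ATPase that takes SNARE complexes apart, read 9.80 and 9.42 in the congenic and 11.26 and 11.07 in BDIV (-1.55 ± 0.29, adjusted p = 0.0079). Vamp1 (-1.71) and Rims1 (-1.31) were lower, and the synapsin gene Syn1 at least 1.66-fold lower. Syt1 (-0.08), Vamp2 (-0.07) and Snap25 (-0.63) were not called. The count was 2 without the BDIV female, 3 without the congenic female and 4 without the BDIV male array. Vamp1 was not called without the congenic female (adjusted p = 0.0574), Syn1 without the BDIV female (0.0915), and Rims1 without the congenic female (0.117), BDIV male (0.0617) or BDIV female array (0.108).

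Of 15 potassium and sodium channel genes 8 were lower and none higher (median -0.78), and 2 had passed the filter through the BDIV arrays alone. That is 53.3% called, against 37.0% of all probes. Of the 11 detected on all 4 arrays 6 were lower (median -0.69). The A-type potassium channel gene Kcnd3 read 8.23 and 7.53 in the congenic and 9.65 and 9.83 in BDIV (-1.86 ± 0.29, adjusted p = 0.0043), and Kcnip4, an auxiliary subunit of such channels, differed by -2.16 ± 0.41. Kcnab1 (-1.68) and the sodium channel subunit Scn4b (-1.28) were also lower. Here 3 were called without the BDIV female array, and 4 without the congenic female or the BDIV male array. Scn4b missed the threshold without the BDIV female (adjusted p = 0.0613) or the congenic female array (0.0919). Under median scaling 21 of 22 neuronal, 14 of 14 synaptic and 11 of 15 channel genes were called lower, with medians of -1.76, -1.20 and -0.98. That scaling called 5415 of all 10484 probes lower, with a median of -0.64.

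Of 26 genes of microtubule motors, dynactin and tubulin 8 were lower and 4 higher (median -0.36). That is 46.2% called, against 37.0% of all probes. Tuba4a, an alpha-tubulin, read 10.24 and 10.04 in the congenic and 12.45 and 12.46 in BDIV (-2.32 ± 0.17, adjusted p = 7.4e-04), and the beta-tubulin gene Tubb2b differed by -1.48 ± 0.18. The dendritic protein gene Map2 was at least 2.46-fold lower. Tuba1a, the chief alpha-tubulin of developing neurons, was higher by 0.96. The 4 higher calls fell to 0 without any 1 of the 4 congenic and BDIV arrays, and the lower ones to 5 without the BDIV female array. With 1 of the BDIX arrays left out, 13 were lower.

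Single genes of the Schwann cell lineage were higher in the congenic, and the list as a whole was called no more often than all probes (33.3% against 37.0%). Sox10, the transcription factor of this lineage, read 11.84 and 11.95 in the congenic, 10.54 and 10.58 in BDIV and 12.21 and 12.42 in BDIX (1.33 ± 0.17, adjusted p = 0.0028). Erbb3, the receptor that binds neuregulin on Schwann cells, read 8.74 and 8.95 in the congenic and 7.22 and 7.56 in BDIV (1.46 ± 0.21, adjusted p = 0.0037). Its partner Erbb2 differed by 0.94 ± 0.22 (adjusted p = 0.016) but was not called when the congenic female (adjusted p = 0.0518), the BDIV male (0.153) or the BDIV female array (0.133) was left out. Pou3f1, a transcription factor of Schwann cells that are about to myelinate, was at least 1.85-fold higher, and not called without the BDIV male (0.237) or the BDIV female array (0.104). In all 4 of 12 tested lineage genes were higher and none lower, with a median of 0.49 that turned to -0.05 under median scaling. The count was 2 without the BDIV male or the BDIV female array and 7 without the BDIX male or the BDIX female array. S100b (0.47), Ngfr (0.51), Cdh19 (0.39) and Sox2 (0.17) were not called.

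In the neuregulin and ErbB list 5 of 8 tested genes were higher and Nrg1 alone was lower (median 0.86). That is 75% called, against 37.0% of all probes. Adam17, a protease that sheds ErbB ligands, differed by 1.19 ± 0.18 (adjusted p = 0.0042), and Hbegf, a ligand of the epidermal growth factor receptor, by 1.54 ± 0.26 (adjusted p = 0.00595). Bace1, the protease that cleaves neuregulin to start myelination, was not called (-0.42). Higher calls numbered 2 without the BDIV female array and 3 without the congenic female or the BDIV male array, and Hbegf was not called without the BDIV female array (adjusted p = 0.0578).

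Myelin genes went both ways, and 41.7% of the list were called against 37.0% of all probes. Gldn, a ligand that gathers sodium channels at nodes of Ranvier, read 12.14 and 12.30 in the congenic, 10.26 and 9.95 in BDIV and 11.68 and 12.39 in BDIX (2.12 ± 0.25, adjusted p = 0.0023). Cnp, an enzyme of non-compact myelin, read 13.61 and 13.83 in the congenic and 12.24 and 12.23 in BDIV (1.48 ± 0.21, adjusted p = 0.0033). Egr2, the transcription factor that drives myelination, differed by 1.45 ± 0.43 and had BDIV pools of 13.06 and 11.96, more than a log2 unit apart. Pllp (-0.68 ± 0.20) and Ugt8 (-0.63 ± 0.20), the enzyme of galactocerebroside synthesis, were lower, and for both BDIX lay above BDIV. Mbp (-0.58), Pmp22 (0.52), Mal (0.07) and Mag (-0.26) were not called. Of the 12 tested genes 3 were higher and 2 lower, with a median of 0.04 that turned to -0.36 under median scaling. With 1 of the BDIX arrays left out, 5 were called higher and 3 lower. Without the BDIV female array Gldn alone was called, with Cnp at an adjusted p of 0.0519 and Egr2 at 0.35. Egr2 was not called without the congenic female array either (0.11), and Pllp and Ugt8 were not called without any 1 of the congenic and BDIV arrays (0.0869 to 0.45).

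Matrix, basal lamina and vessel genes were mostly called higher in the congenic under quantile normalisation. Under median scaling fewer were called higher, and the list medians stayed above the -0.64 of all probes. Of 22 fibroblast and extracellular matrix genes 13 were higher and 3 lower, with a median of 0.93. Called genes made up 72.7% of this list, against 37.0% of all probes. Fmod, a proteoglycan that binds collagen, read 9.11 and 8.57 in the congenic, 6.26 and 6.35 in BDIV and 6.52 and 6.68 in BDIX (2.54 ± 0.25, adjusted p = 0.0016). For Fmod the congenic stood apart from both other strains. Sparc, a matricellular glycoprotein, read 14.36 and 14.34 in the congenic and 12.70 and 12.39 in BDIV (1.81 ± 0.21, adjusted p = 0.0022). Fbln1 differed by 1.65 ± 0.19 and Pdgfra, a receptor that marks fibroblasts, by 1.45 ± 0.20. The collagen V genes Col5a1 (1.27) and Col5a2 (1.30) were higher, Col1a1 (-0.86), Fn1 (-0.79) and Postn (-2.29) lower, and Col1a2 (0.12), Col3a1 (-0.45) and Dcn (0.11) not called. Without the BDIV female array 5 were called higher, without the BDIV male 7 and without the congenic female 8. Lower calls numbered 0 without the BDIV female and 1 without the BDIV male or the congenic male array, and 5 without the BDIX female array. Under median scaling 5 were called higher and 6 lower, with a median of 0.23.

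Of 8 perineurial and basal lamina genes 6 were higher and 1 lower (median 0.73). The called share was 87.5% here and 77.8% in the vessel list below, against 37.0% of all probes. The laminin gene Lamb2 read 12.19 and 12.41 in the congenic and 10.61 and 10.59 in BDIV (1.70 ± 0.18, adjusted p = 0.0017). Its partner Lamc1 (1.15) and the laminin receptor subunit Itga7 (1.12) were higher, and the tight junction gene Cldn1 lower (-1.27). Between 1 and 3 were called higher without any 1 of the 4 congenic and BDIV arrays. Of 9 endothelial and mural genes 6 were higher and 1 lower (median 0.83). Vwf, the clotting factor made by endothelium, read 11.40 and 11.68 in the congenic, 9.22 and 9.19 in BDIV and 11.03 and 11.31 in BDIX (2.34 ± 0.18, adjusted p = 7.9e-04). The endothelial receptor gene Tie1 differed by 1.73 ± 0.21 and the smooth muscle gene Tagln by 1.28 ± 0.25. The pericyte gene Rgs5 was at least 1.31-fold lower. Higher calls numbered 2 or 3 without any 1 of those 4 arrays. Under median scaling 1 basal lamina gene was higher and 2 were lower (median 0.07), and 2 vessel genes were higher and 1 lower (median 0.04). The BDIV female array decided the calls of Rgs5 (adjusted p = 0.133 without it), Lamc1 (0.198), Itga7 (0.0715) and Cldn1 (0.0607). Lamc1 and Tagln were also not called without the congenic female (0.0804 and 0.0626), Cldn1 and Tagln without the BDIV male (0.0549 and 0.0576) and Itga7 without the congenic male array (0.0591).

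**Figure D3:**
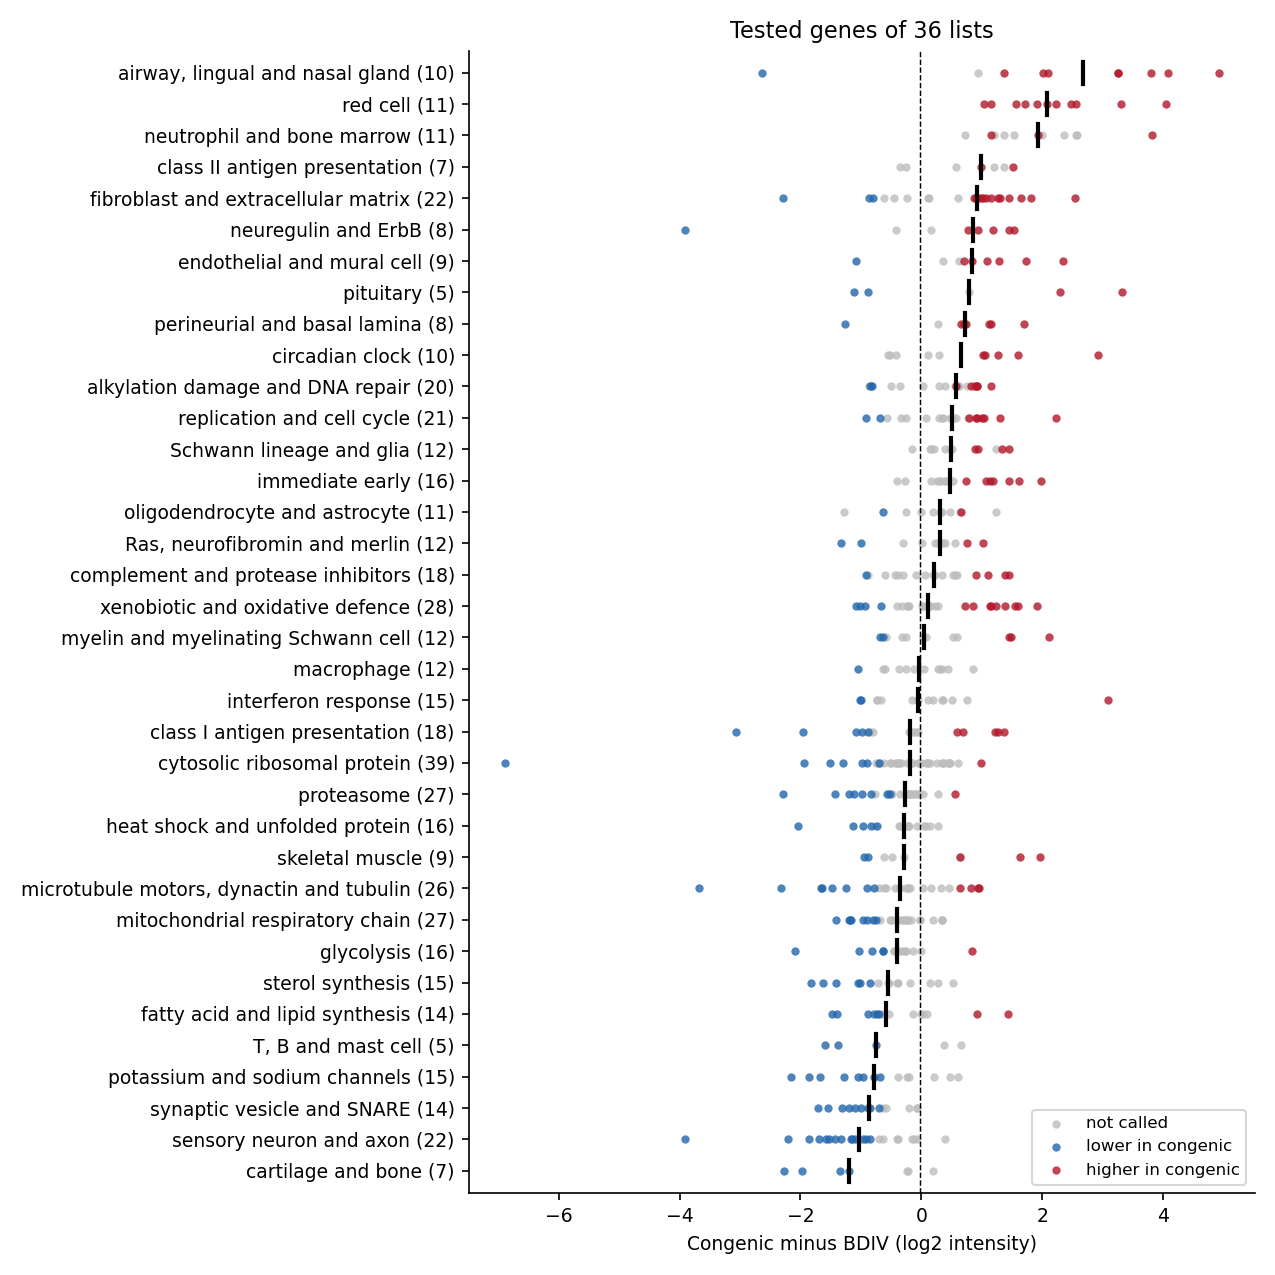
Congenic minus BDIV log2 difference of each tested gene in 36 lists, with the number tested in brackets, coloured by call. Black bars are list medians and the dashed line is the median of all tested probes (-0.017). All 11 red cell genes lie to the right (median 2.08) and most sensory neuron genes to the left (median -1.03), while the place of the gland list follows in part from the detection filter. The place of the neutrophil list may do so as well.

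Several lists of cells and tissues other than nerve differed as well, and the summed levels of some are given by pool. Whether they move with the lists above was not tested. All 11 tested red cell genes were higher in the congenic (median 2.08), with summed log2 levels of 16.29 and 16.03 in the congenic, 14.28 and 13.77 in BDIV and 16.08 and 16.14 in BDIX. Hbb read 15.15 and 14.96 in the congenic and 12.85 and 12.31 in BDIV (2.48 ± 0.27, adjusted p = 0.0019), and Hbb-b1 differed by 2.08 ± 0.18. The globin genes are near-identical copies, so their probes may share signal. Lgals5, a galectin of rat red cell precursors, read 10.29 and 9.08 in the congenic and 6.61 and 6.16 in BDIV. Alas2, which starts haem synthesis in erythroid cells, differed by 1.04 ± 0.29. Without the BDIV male array 6 of the 11 were called. Vessel genes and red cell genes were thus higher in the same pools, and the part of retained blood in either was not tested.

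Neutrophil and bone marrow genes were high in the male congenic pool. Of 11 tested 3 were higher (median 1.93) and none lower, a called share of 27.3% against 37.0% of all probes. Just 1 of the 11 was detected on all 4 congenic and BDIV arrays, so their direction may follow in part from the detection filter. Defa5, a defensin, read 11.32 in the congenic male, 6.85 in the congenic female, 5.34 and 5.20 in BDIV and 10.89 and 7.84 in BDIX. Mpo, the myeloperoxidase gene, read 8.18 and 5.61 in the congenic and 4.95 and 4.98 in BDIV. Summed levels were 13.10 in the congenic male, 9.05 in the congenic female, 8.72 and 8.64 in BDIV, and 13.07 and 10.60 in BDIX. With the congenic male as the sole congenic array 10 of the 11 were called higher, without the BDIV female array 9, and without the BDIV male array 1, when Mpo had an adjusted p of 0.182. Without the BDIX male array 10 were called, and without the BDIX female array 11.

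Several genes of airway, lingual and nasal glands read high in both congenic pools. Of the 10 tested, 6 had passed the detection filter through the 2 congenic arrays alone and none was detected on all 4 congenic and BDIV arrays, so their direction was largely fixed by the filter and no count is read from the list. Vegp2 and Lcn1, lipocalins of von Ebner's glands of the tongue, read 10.26 and 10.05 in the congenic male and 6.93 and 7.38 in the female. Both read 5.70 or less on the other 4 arrays. Cyp2g1, a cytochrome P450 of olfactory epithelium, read 8.52 and 7.59 in the congenic and at most 4.86 elsewhere (3.25 ± 0.29). Its relatives Cyp2a3 and Cyp2f4 were at least 3.35-fold and 3.24-fold higher. Summed levels were 12.12 and 12.26 in the congenic, 8.98 and 9.11 in BDIV and 8.48 and 8.30 in BDIX. Of 17 listed genes on the array 7 did not pass the detection filter, among them the airway gene Scgb1a1.

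Pituitary genes were highest in summed level in the female pools of the congenic (12.85) and BDIX (12.46), against 9.01 in the congenic male, 10.82 in the BDIX male and 9.13 and 9.57 in BDIV. Prl read 6.77 in the congenic male and 12.68 in the congenic female, 5.33 and 7.49 in BDIV, and 8.59 and 12.33 in BDIX. Tshb, a subunit of thyrotropin, was at least 4.79-fold higher in the congenic and missed the threshold without the BDIV male (adjusted p = 0.0774), BDIV female (0.108) or congenic female array (0.119), and Prl without the BDIV female array (0.0527). Of the 5 tested pituitary genes 2 were higher and 2 lower. The called share was 80% here, 57.1% for cartilage and bone and 55.6% for skeletal muscle, against 37.0% of all probes. In the lists of cartilage and bone, 4 of 7 genes were lower and none higher (median -1.20), led by Cnmd, a cartilage glycoprotein (-1.97 ± 0.19), and osteocalcin (Bglap, -2.27 ± 0.63). Without the BDIV male array 2 were called, and Bglap was not called without the BDIV female array (0.162). Of 9 skeletal muscle genes 3 were higher, among them desmin (Des, 1.96 ± 0.21) and Tnnc2 (1.63 ± 0.30), and 2 lower. Without the BDIV male array 1 was called in each direction, and Tnnc2 had an adjusted p of 0.0528. Their median of -0.29 turned to 0.51 with the authors' processed values and 0.17 under cyclic loess.

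Of 11 oligodendrocyte and astrocyte genes 1 was higher and 1 lower (median 0.31, or -0.47 under median scaling), and some were uneven between the 2 pools of a strain. The called share was 18.2%, against 37.0% of all probes. Mog, a protein of central myelin, read 6.87 in the congenic male and 9.78 in the congenic female, 7.11 and 8.93 in BDIV, and 7.56 and 5.57 in BDIX. The water channel gene Aqp4 read 5.52 and 8.13 in the congenic and 5.78 and 5.43 in BDIX, with 7.25 in the BDIV female pool. Cldn11, the claudin of central myelin, was called higher (0.65 ± 0.20) and turned to -0.16 under median scaling. It was not called without any 1 of the congenic and BDIV arrays (adjusted p = 0.162 to 0.304). With the male or the female BDIX array left out, 3 of the list were higher and 2 lower. The part of these markers in the differences of the nerve genes above was not tested.

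**Figure D4:**
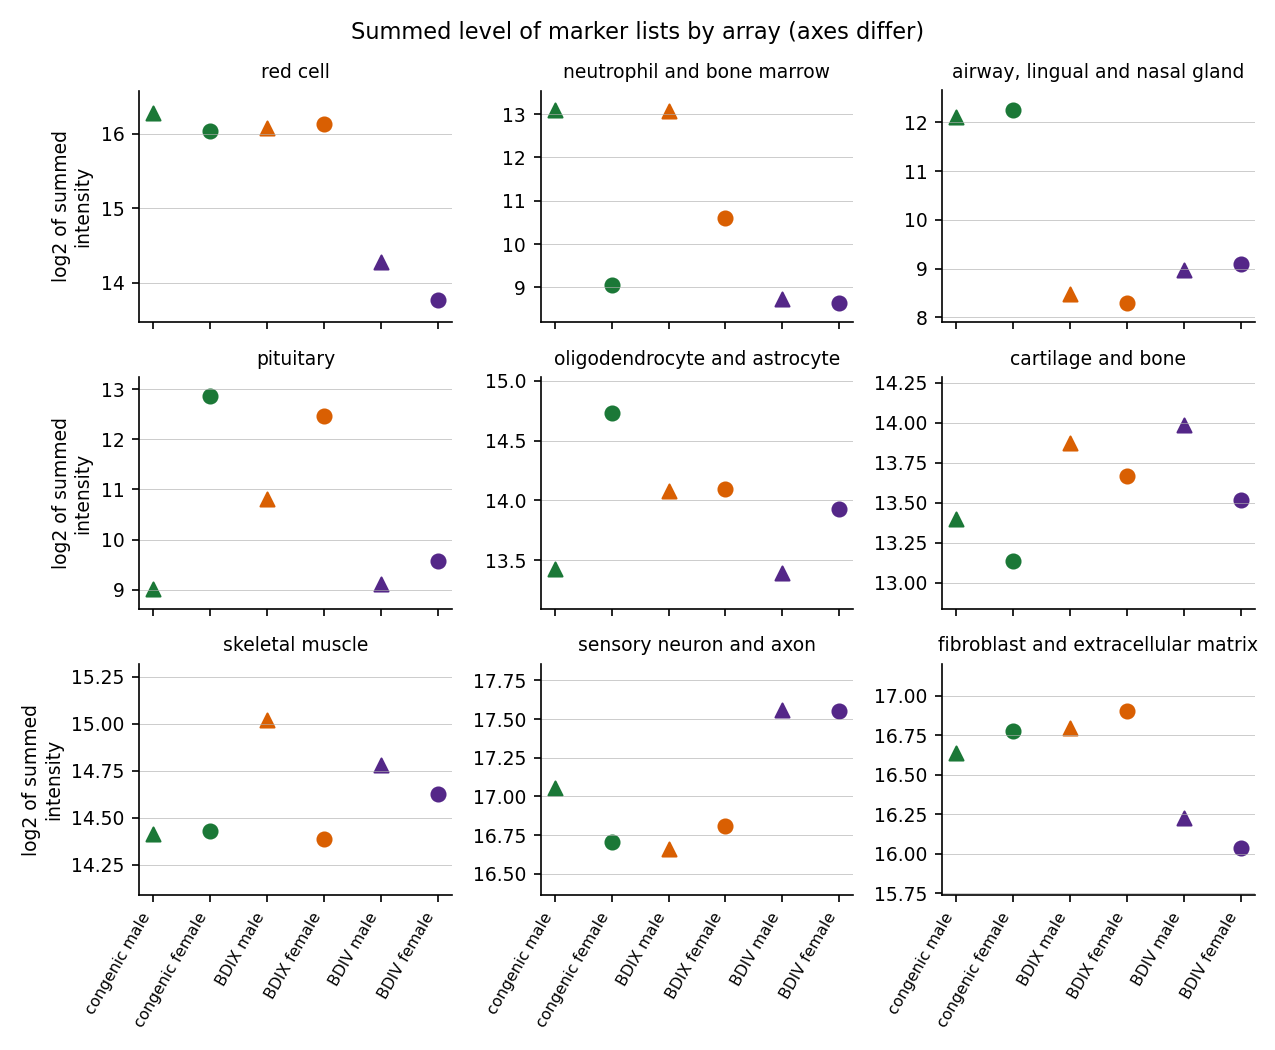
Log2 of the summed intensity of the tested members of 9 marker lists on each array, with triangles for male and circles for female pools and a separate vertical axis for each list. Red cell genes are low in both BDIV pools, gland genes high in both congenic pools, and pituitary genes high in the female pools of the congenic and BDIX.

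Several cholesterol synthesis genes were lower in the congenic. Of 15 tested 6 were lower and none higher (median -0.55), against 18.9% of all probes called lower. Calls in either direction made up 40% of the list, near the 37.0% of all probes. Fdps, which makes farnesyl diphosphate, read 9.65 and 9.47 in the congenic, 11.27 and 11.50 in BDIV and 11.40 and 11.08 in BDIX (-1.82 ± 0.20, adjusted p = 0.0019). Idi1, the isomerase one step earlier, read 9.34 and 9.33 in the congenic and 10.74 and 10.77 in BDIV (-1.42 ± 0.17, adjusted p = 0.0023). Cyp51, the lanosterol demethylase, differed by -1.63 ± 0.22 and Tm7sf2, a sterol reductase, by -1.05 ± 0.18. For these 4 genes, the called members of smallest p, the congenic pools lay below all 4 pools of the other strains. Their place below BDIV largely follows from that choice, and the share of all probes in this order was not counted. Hsd17b7 (-1.01) and Ebp (-0.85) were also lower. Sqle (-0.41), Fdft1 (-0.18), Msmo1 (0.15) and the regulator Srebf2 (0.28) were not called. Without the BDIV female array 3 were called, and Tm7sf2 was not (adjusted p = 0.0766). With the male or the female BDIX array left out, 11 were lower and 1 was higher. Median scaling called 13 of 15 lower (median -1.38), against 5415 of all 10484 probes (median -0.64).

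Promoters of sterol genes are known to bind the factor NF-Y at CCAAT boxes beside sterol response elements. The promoters of the 3 lower genes of smallest p that hold this motif are shown as examples of the called members. They run from 250 bases before to 50 after the RefSeq gene start (GRCr8), on the gene's strand, and capitals mark CCAAT or its reverse complement ATTGG. The stretches lie at chr2:176804767-176805066 (Fdps), chr17:66547475-66547774 (Idi1) and chr1:212789492-212789791 (Tm7sf2), all on the minus strand.
Fdps: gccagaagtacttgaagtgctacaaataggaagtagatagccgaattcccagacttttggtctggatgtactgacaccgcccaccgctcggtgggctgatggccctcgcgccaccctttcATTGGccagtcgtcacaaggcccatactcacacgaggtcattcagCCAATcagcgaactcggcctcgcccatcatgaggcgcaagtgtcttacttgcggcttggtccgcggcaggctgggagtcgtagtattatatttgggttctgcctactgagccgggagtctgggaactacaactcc
Idi1: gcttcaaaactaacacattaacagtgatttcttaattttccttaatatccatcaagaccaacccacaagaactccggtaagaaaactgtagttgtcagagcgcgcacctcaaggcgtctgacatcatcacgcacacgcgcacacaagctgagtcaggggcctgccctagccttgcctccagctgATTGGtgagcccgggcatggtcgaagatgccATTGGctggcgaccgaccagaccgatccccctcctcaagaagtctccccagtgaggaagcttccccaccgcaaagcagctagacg
Tm7sf2: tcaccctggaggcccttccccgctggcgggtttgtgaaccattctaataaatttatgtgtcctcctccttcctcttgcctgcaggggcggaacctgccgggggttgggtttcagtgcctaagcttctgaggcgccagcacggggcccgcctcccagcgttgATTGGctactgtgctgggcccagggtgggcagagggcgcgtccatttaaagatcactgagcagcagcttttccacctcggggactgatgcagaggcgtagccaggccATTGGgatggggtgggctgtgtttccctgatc
The motif begins 130 and 85 bases before the start in Fdps and 66 and 35 bases before it in Idi1, and the first one in Tm7sf2 begins 89 bases before. Of 12 tested sterol genes with a promoter entry 10 held the motif on either strand, against 37.5% of 33469 RefSeq promoters of the same length. It was as frequent in the called genes (5 of 6) as in those not called (5 of 6), so it did not set the lower genes apart. A match is a description of the letters and not a site of binding.

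Lipid synthesis beyond sterols was mixed, with 6 of 14 genes lower and 2 higher (median -0.59). That is 57.1% called, against 37.0% of all probes. The desaturase gene Scd read 10.39 and 10.29 in the congenic and 11.78 and 11.86 in BDIV (-1.48 ± 0.18, adjusted p = 0.0023), and the ceramide kinase gene Cerk differed by -1.40 ± 0.18. The regulator of the fatty acid genes, Srebf1, was higher by 1.43 ± 0.20 (adjusted p = 0.0036). Lower calls numbered 2 or 3 without any 1 of the 4 congenic and BDIV arrays.

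Several genes of the circadian clock and of the immediate early response were higher in the congenic. Of 10 tested clock genes 5 were higher and none lower (median 0.66). Besides Nr1d1, the repressor Bhlhe40 read 9.06 and 9.18 in the congenic, 7.54 and 7.51 in BDIV and 8.70 and 8.97 in BDIX (1.59 ± 0.20, adjusted p = 0.0025). The activator Bmal1 differed by 1.27 ± 0.21, the output gene Dbp by 1.02 ± 0.25 and Per1 by 1.06 ± 0.29, while Per2 (0.29), Cry1 (-0.55) and Cry2 (-0.52) were not called. Of 16 immediate early genes 7 were higher and none lower (median 0.47). Calls in either direction made up 43.8% of the immediate early list and 5 of the 10 clock genes, against 37.0% of all probes. Over all probes 18.1% were called higher. Whether either list exceeded these shares was not tested. Junb read 9.41 and 9.52 in the congenic and 7.85 and 7.83 in BDIV (1.62 ± 0.19, adjusted p = 0.0021), and Fos read 7.05 and 7.84 against 5.46 and 5.48 (1.98 ± 0.34, adjusted p = 0.0062). Ier2 (1.07) and Zfp36 (1.18) were higher, and Jun (0.38), Atf3 (0.41) and Myc (0.16) not called. The medians turned to -0.12 for the clock and -0.26 for the immediate early genes under median scaling. Without the BDIV female array 2 of either list were called, without the congenic female 3 clock and 2 immediate early genes, and without the BDIV male array 3 clock genes. Bmal1 was not called without the BDIV male (adjusted p = 0.0544) or BDIV female array (0.0654), and Zfp36 without the congenic female (0.117) or BDIV female array (0.216). Dbp (0.0798 to 0.145) and Ier2 (0.0518 to 0.157) were not called without the congenic female, the BDIV male or the BDIV female array. The sources used here do not give the hour at which nerves were taken. The E-box CACGTG, at which clock factors bind, lay in 2 of 9 clock promoters (Bhlhe40 and Tef) on either strand, against 6.42% of all. The cyclic AMP response element TGACGTCA lay in 2 of 11 immediate early promoters (Ier2 and Dusp1), against 1.83%. Bhlhe40 and Ier2 were called higher, while Tef and Dusp1 were not called. As for the sterol genes, a match describes the letters and is not a site of binding.

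DNA repair and detoxification genes bear on the lesions that an alkylating carcinogen makes. Of 20 tested repair genes 6 were higher and 2 lower (median 0.57, or -0.20 under median scaling). Lig1, a DNA ligase of replication and repair, read 8.92 and 9.18 in the congenic and 7.92 and 7.86 in BDIV (1.16 ± 0.20, adjusted p = 0.00595). Parp2 (0.93), the replication clamp Pcna (0.91) and the single-strand break scaffold Xrcc1 (0.89) were higher, and the direct reversal enzymes Alkbh3 (-0.85) and Alkbh2 (-0.82) lower. Mgmt, which removes alkyl groups from guanine, read 6.24 and 5.96 in the congenic and 6.84 and 7.10 in BDIV and was not called (-0.87 ± 0.34, adjusted p = 0.0792). Without the BDIV female array none of the 20 was called, without the congenic female array 1 lower and without the BDIV male array 1 higher. Lig1 had an adjusted p of 0.0556 without the congenic female and 0.0795 without the BDIV female array. Without the BDIX male array 10 were higher and 6 lower, and without the BDIX female array 11 and 6. With a share of 40.0% called against 37.0% of all probes, the list did not stand out by its count.

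Among 28 genes that metabolise xenobiotics or oxidants, 9 were higher and 4 lower (median 0.12, or -0.69 under median scaling). The called share was 46.4%, against 37.0% of all probes. Gclc, which starts glutathione synthesis, read 10.50 and 10.58 in the congenic, 8.65 and 8.60 in BDIV and 9.87 and 10.42 in BDIX (1.91 ± 0.21, adjusted p = 0.0019). The catalase gene Cat differed by 1.60 ± 0.21, the cytochrome P450 gene Cyp1b1 by 1.54 ± 0.19 and the glutathione transferase gene Gstm2 by 1.23 ± 0.18. The differences of these 4 kept their sign whichever array was left out, and Gstm2 was not called under median scaling. The list held 4 higher calls without the congenic female array and 5 without the BDIV male or the BDIV female array, and 0 lower calls without the congenic female or the BDIV female array.

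Lists of housekeeping machinery were called at or below the 37.0% of all probes, apart from glycolysis at 37.5%. The share was 29.6% for the respiratory chain, 33.3% for the proteasome and 20.5% for ribosomal proteins. Median scaling called 5415 of all 10484 probes lower. The same scaling called 22 of 27 respiratory chain, 26 of 27 proteasome, 13 of 16 glycolysis and 19 of 39 ribosomal protein genes lower. Of 27 respiratory chain genes 8 were lower and none higher (median -0.40), with Cox5a, a subunit of cytochrome oxidase, at -1.42 ± 0.29. None was called without the BDIV female array, when Cox5a had an adjusted p of 0.108, and 1 and 4 without the congenic male and the congenic female array. After 1 BDIX array was left out, 15 were lower and 3 higher. Of 27 proteasome genes 8 were lower and 1 higher (median -0.27), and Psma1 read 6.12 and 6.04 in the congenic and 8.30 and 8.43 in BDIV (-2.28 ± 0.22, adjusted p = 0.0015). Of 16 glycolysis genes 5 were lower and 1 higher (median -0.41), with Eno1 at -2.09 ± 0.22. Without any 1 of the 4 congenic and BDIV arrays 2 to 4 proteasome and 1 or 2 glycolysis genes were called lower, and without the BDIX male or the BDIX female array 8 glycolysis genes. Of 39 cytosolic ribosomal protein genes 7 were lower and 1 higher, with a median of -0.18 that turned to 0.29 with the authors' processed values. Besides Rpl30, Rpl7 read 9.99 and 10.24 in the congenic and 12.13 and 11.97 in BDIV (-1.94 ± 0.20, adjusted p = 0.0018). Many of these genes have near-identical pseudogenes. Lower calls among them numbered 2 without the BDIV female array and 4 without each of the other 3. Without the BDIX male array 9 were higher and 16 lower, and without the BDIX female array 9 and 17. Of 21 replication and cell cycle genes 42.9% were called, 7 higher and 2 lower (median 0.51, or 0.03 under median scaling), led by the replication helicase genes Mcm6 (1.30 ± 0.23) and Mcm2 (1.03 ± 0.21). Higher calls numbered 1 without the BDIV male and 4 without the BDIV female array. Mcm6 was not called without the BDIV male array (adjusted p = 0.0746), and Mcm2 without that array (0.0651), the congenic female (0.0582) or the BDIV female array (0.132).

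The series title names an effect biased by sex, so the strain difference was set side by side in males and females, with no test, since 1 pool per strain and sex leaves no residual for it. The genes with the largest gap toward males were the neutrophil genes RatNP-3b, S100a8 and Defa5, the alpha-globin chaperone Ahsp and the gland genes Vegp2 and Lcn1. RatNP-3b, a neutrophil defensin, read 10.84 in the congenic male and 5.34 in the congenic female against 5.65 and 5.38 in BDIV, so the strain difference was 5.19 in males and -0.03 in females. S100a8, a calcium-binding protein of neutrophils, read 11.01 and 6.41 against 6.30 and 6.39, a difference of 4.72 in males and 0.01 in females. For both, the male congenic pool stood above the other congenic and the BDIV pools, and BDIX read 11.14 and 7.95 for RatNP-3b and 11.50 and 9.10 for S100a8. The largest gaps toward females were in Prl, Rhoa, Bpifa1, the mitotic kinase gene Aurkb, Etv1 and Rfc1. Aurkb read 6.09 in the congenic male and 8.54 in the congenic female against 5.07 and 5.12 in BDIV. Its strain difference was called over both sexes (2.22, adjusted p = 0.0362) but not without the congenic female (0.0701) or the BDIV female array (0.159). Rhoa, a GTPase of the actin cytoskeleton, read 9.28 and 11.61 in the congenic against 12.68 and 11.60 in BDIV, a difference of -3.40 in males and 0.00 in females. Over all tested probes, the SD of male minus female was 0.45 in the congenic, 0.21 in BDIV and 0.52 in BDIX. The gap itself had an SD of 0.47.

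The Mss4 locus has been mapped to rat chromosome 6, where the congenic and BDIV share a segment whose ends the labels do not give, so no gene was assigned to it. Of 324 tested named probes on chromosome 6, 109 (33.6%) were called between the congenic and BDIV, 52 higher and 57 lower. Over the 21 chromosomes compared the share ranged from 29.7% on chromosome 13 to 42.8% on X, with a median of 35.9%. In 5 equal bins of genes in their order along chromosome 6 the share was 34.4%, 36.9%, 33.8%, 35.4% and 27.7%, and such bins ranged from 15.3% to 52.9% over all chromosomes. Against BDIX 35 of the 324 (10.8%) were called, and chromosomes ranged from 7.44% to 16.1%. None of the 5 bins of chromosome 6 stood apart from the bins of other chromosomes by the share called. Since the ends of the segment are not known, a segment shorter than a bin or lying across a bin edge could be missed.

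The called chromosome 6 genes of smallest p were Slc3a1, described above, Sostdc1, Coch, Osr1 and Wars1. Sostdc1, a secreted antagonist of bone morphogenetic proteins, read 12.38 in both congenic pools and 9.66 and 10.33 in BDIV (2.38 ± 0.22, adjusted p = 0.0014). Coch, a matrix protein of the inner ear, differed by 2.52 ± 0.26, and Osr1, a transcription factor of mesenchyme, was at least 3.69-fold higher. Wars1, a tryptophanyl-tRNA synthetase, differed by -1.83 ± 0.20. Plekhh1 on the same chromosome, chosen after its values were seen, read 8.23 and 8.61 in the congenic and 8.34 and 8.39 in BDIV, against 4.84 and 4.89 in BDIX, and the congenic and BDIV did not differ beyond their spread (0.06 ± 0.22).

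**Figure D5:**
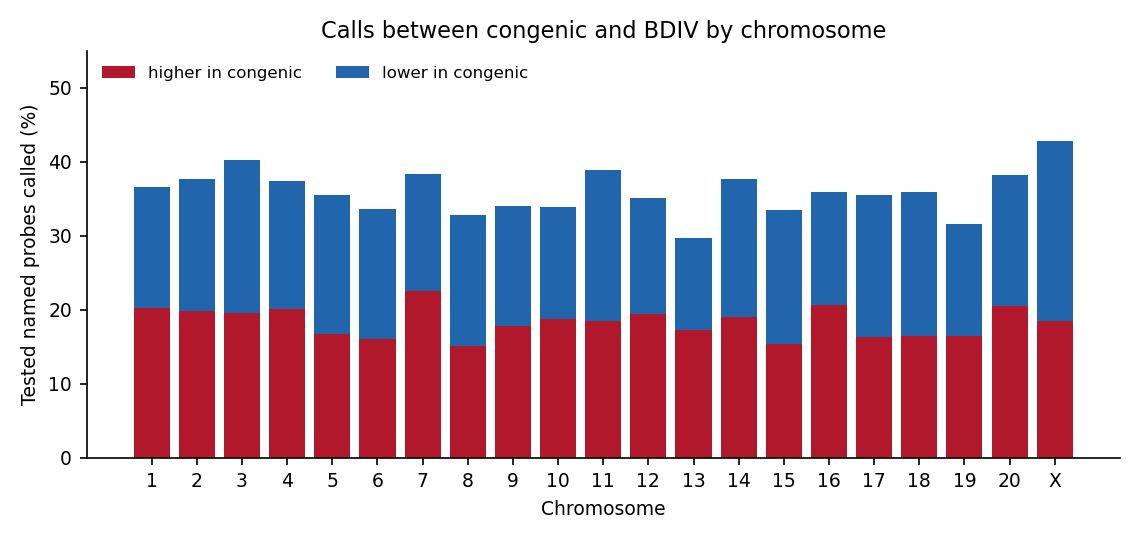
Share of tested named probes called between the congenic and BDIV on each chromosome, in percent, split by direction. Chromosome 6 stands at 33.6%, within the range of 29.7% to 42.8%.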

How the data were processed

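Per the file headers, the authors deposited a linear signal intensity without background subtraction and a detection p-value for each probe and array, besides a table of processed intensity values used as an alternative. The submitters' processing notes name BeadStudio 3.0. Of 21791 probes 242, whose values in the 2 tables were exchanged in 121 pairs, were left out. Background was corrected by normexp with mean and SD inferred from the detection p (825 negative controls implied), an offset of 16 added, and log2 values taken after quantile normalisation (limma 3.58.1, R 4.3.3). Testing required detection (p under 0.01) on 2 or more of the 6 arrays.

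A limma model with strain and sex, moderated with an intensity trend, was fitted to all 6 arrays (2 residual and 5.28 prior degrees of freedom). Every adjusted p is limma's, Benjamini-Hochberg over 10484 probes. No strain and sex had a replicate pool, so the p-values measure how far strain differences disagree between males and females. That disagreement takes in technical spread and any strain effect that differs by sex, which were not told apart. The spread between animals was not estimated, and the number of arrays limits the precision. The steps were tested on simulated data.

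Platform annotation named 13387 probes, updated through the GRCr8 gene table (13349 matched by gene number). The 37 lists hold 1 probe per gene, the brightest on average. Genes were named as the 15 largest called differences per direction, up to 4 called list members of smallest p, X-linked label checks, the 6 largest gaps by sex per direction, the 5 called chromosome 6 genes of smallest p and the largest bounds. Other list members and Plekhh1 were chosen after their values were seen. The members and lists were chosen with earlier results of these data known. Probe sequences and the build behind them were not used here.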

Additional observations from a re-analysis of the deposited data

Results flagged for a closer look

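Among the 12 genes with the widest gap between the male and the female strain difference, 2 had opposite signs in the sexes. Opposite signs are common among all probes, since 84.6% had the same sign. The difference between the sexes was not tested, since 1 pool per strain and sex leaves no residual. The neutrophil defensin gene RatNP-3b had a male minus female gap of 5.22 on the log2 scale, from 5.19 in males and -0.03 in females. In BDIX its male pool also read above the female one (11.14 against 7.95), while BDIV read 5.65 and 5.38. Rhoa had a gap of -3.40, from -3.40 in males and 0.0014 in females, so its female difference is next to 0 and the sign there carries little. The gap kept its sign under median scaling, cyclic loess, the offset of 50 and the authors' processed values for both genes.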

How the results depend on the processing

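Leaving out 1 array at a time gave 960 to 5876 calls, 383 to 2926 of them higher and 577 to 2950 lower in the congenic, and none of the 3880 calls changed sign. Median scaling gave 5913 calls, 498 higher and 5415 lower, with 443 of the 3880 turned. The 4 congenic and BDIV arrays alone, with 1 residual degree of freedom, gave 5749 calls, 2868 higher and 2881 lower. Cyclic loess (3955), the offset of 50 (3839), the authors' processed values (3712), no detection filter (3638), detection on all 4 arrays (3072 of 7952 tested), no sex term (4161) and no intensity trend (3837) stayed within 1.5 times of the count. Cldn11 (-0.156), Braf (-0.0783) and Ddx3x (-0.158) turned under median scaling, and Rhoa, not called in the model used, gave -3.53 to 0.148 when 1 array was left out, the latter without the congenic male array. The causes were not tested. Of 155 called named genes 80 kept their call with any 1 array left out, 75 lost it with some, and 76 kept it under every alternative run. Dim congenic arrays limit what can be said of genes near background.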

Other observations

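Immune genes were mixed, and most of these lists were called no more often than the 37.0% of all probes, with 3 of 15 in the interferon list and 8.33% of the macrophage, 28.6% of the class II and 27.8% of the complement list called, against 55.6% of the class I list. Of 18 class I antigen presentation genes 5 were higher and 5 lower in the congenic (median -0.18). Besides RT1-CE16, RT1-A3 read 8.90 and 8.79 in the congenic and 10.81 in both BDIV pools (-1.96 ± 0.22, adjusted p = 0.002), while RT1-A1 read 11.85 and 11.64 against 10.50 and 10.47 (1.26 ± 0.19, adjusted p = 0.0043). The peptide transporter gene Tap1 was higher (1.36 ± 0.24) and its partner Tap2 lower (-1.08 ± 0.29). The class I genes are near-identical copies, so their signals cannot be told apart. Tap1 was not called without the BDIV male array (adjusted p = 0.0633). Counts fell to between 1 and 3 higher without any 1 of the 4 congenic and BDIV arrays, and to 3 lower without any of these but the congenic male. Of 7 class II genes 2 were higher, RT1-Da (1.52 ± 0.33) and RT1-Db1 (0.99 ± 0.32), and 4 without the congenic male array. Neither was called without the congenic female (0.0679 and 0.25) or the BDIV male array (0.0547 and 0.286), and 5 of the list were called without the BDIX male or the BDIX female array. RT1-Db1 was not called without the BDIV female array (0.0695). Of 15 interferon response genes Ifi47 was higher, and Mx2 (9.36 and 9.18 against 10.30 and 10.24) and Oas1a (at least 1.60-fold) were lower. Without 1 array at a time Mx2 had an adjusted p of up to 0.0929 and Oas1a of up to 0.242, and neither was called without the BDIV male or the BDIV female array. With 1 of the BDIX arrays left out, 3 of the interferon list were higher and 5 lower. Of 12 macrophage genes Lgals3 alone was called (-1.05 ± 0.24), and it was not called without the congenic male (adjusted p = 0.0922), congenic female (0.0686) or BDIV female array (0.193), while without the BDIX male or the BDIX female array 3 macrophage genes were lower and 1 higher. The mast cell genes Kit, Cma1 and Cpa3, 3 of 5 tested T, B and mast cell genes, were at least 2.39-fold, 2.50-fold and 1.22-fold lower. Neither congenic array detected them. None of the 5 was detected on all 4 congenic and BDIV arrays, and 1 had passed the detection filter through the BDIV arrays alone. With 1 array left out the log2 difference was -1.56 to -1.26 in Kit, -2.11 to -0.96 in Cma1 and -0.94 to -0.61 in Cpa3. The calls of Cma1 and Cpa3 rested on single arrays.

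Of 18 complement and protease inhibitor genes 4 were higher, among them Serping1 (1.10 ± 0.18), C4b (1.38 ± 0.26) and Cfb (0.91 ± 0.21), and Clu was lower (-0.92 ± 0.21). The median of 0.20 turned to -0.62 under median scaling, and 1 higher call was left without the congenic female or the BDIV male array, and 2 without the BDIV female array, against 8 higher and 4 lower without the BDIX male or the BDIX female array. Clu and Cfb were not called without any 1 of the congenic and BDIV arrays (adjusted p = 0.0572 to 0.21), Serping1 not without the congenic female (0.0809) or BDIV female (0.078), and C4b not without the BDIV male array (0.0517). Of the chaperone list 31.2% and of the Ras list 33.3% were called. Chaperone and unfolded protein response genes had 5 of 16 lower (median -0.29), with the chaperone Hsp90aa1 at 9.67 and 9.24 in the congenic and 11.59 and 11.40 in BDIV (-2.04 ± 0.28, adjusted p = 0.0034), 1 to 3 called without any 1 of the congenic and BDIV arrays and 8 without the BDIX male or the BDIX female array. Of 12 genes of Ras, neurofibromin and merlin, Spred1 (-1.33 ± 0.21) and Rasa1 (-0.999 ± 0.24), restraints on Ras, were lower, and Rras (1.01 ± 0.24) and Braf (0.76 ± 0.22) higher. The Ras list had a median of 0.30 that turned to -0.49 under median scaling, where Braf read -0.0783. With 1 of the BDIX arrays left out, 4 of the list were higher. Spred1 was not called without the BDIV female array (adjusted p = 0.0599), and Rasa1, Rras and Braf not without the congenic female, the BDIV male or the BDIV female array (0.0638 to 0.189).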
